A study of Homo sapiens with 95 samples.

Results

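The genes described here are 10 inflammatory genes read in AALE cells, an immortalized human bronchial epithelial cell line: the chemokines CXCL1, CXCL2, CXCL3, IL8 and CCL20, the cytokines IL6, IL1A and IL1B, and the NF-kB feedback genes TNFAIP3 and NFKBIA. They were chosen by symbol, with earlier results of these data known, and all 10 were listed in each well's counts, out of 23895 genes listed. IL8 is the older name of CXCL8. Transcripts were counted by 3′ digital gene expression (3′DGE), in which a random tag on every molecule (the unique molecular identifier, UMI) lets it be counted once, in 95 wells of 32 groups. Each group was 1 of 8 cell populations under 1 of 4 treatments: the vehicle DMSO, 24 µg/ml of cigarette smoke condensate (CSC), 173 µM of benzo[a]pyrene (BaP), or 490 µM of the tobacco nitrosamine NNK. The populations NRF2, FGFR1, NRG1 and PIK3CA overexpressed the named gene, and HCRED, an empty vector carrying the reporter HcRed, was their control. FAT1 and CDKN2A were CRISPR knockout populations, and GFP, cells given the Cas9-EGFP plasmid PX458 with no guide RNA, was their control. All wells share the AALE immortalization. The sources used here do not state the exposure time, or whether a population was a clone or a pool of edited cells.

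Epithelial cells that line the airway make these factors when they sense damage or microbes. NF-kB is a family of transcription factors held in the cytoplasm by inhibitors of the IkB family. When a receptor for interleukin-1, TNF or a microbial product is engaged, the inhibitor is degraded, NF-kB enters the nucleus and chemokine and cytokine genes are transcribed. NFKBIA encodes the inhibitor IkB-alpha and TNFAIP3 encodes A20, an enzyme that shuts down the receptor complexes, so both are targets of NF-kB that limit it. The CXCL genes and IL8 draw neutrophils, CCL20 draws cells that carry the receptor CCR6, and IL1A and IL1B are the agonists of the interleukin-1 receptor.

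The 250 bases before the start of 5 members are shown. IL1A, IL1B, CCL20 and IL8 are called in comparisons below, and NFKBIA is the feedback gene measured in every well and was called in none. The windows differ in which of 4 short motifs they hold. The motifs do not separate NFKBIA from the called members, and their part in any response was not tested. The sequences are RefSeq's, and all 10 members were matched in that table. For IL1A, with 2 starts in the table, the first listed was used. Capitals mark letters that match, on either strand, the NF-kB consensus, the AP-1 motif TGANTCA, the core GCGTG of the xenobiotic response element bound by the aryl hydrocarbon receptor, or the core TGACNNNGC of the antioxidant response element bound by NRF2.
IL1A (GRCh38.p14, chr2:112784494-112784743, minus strand): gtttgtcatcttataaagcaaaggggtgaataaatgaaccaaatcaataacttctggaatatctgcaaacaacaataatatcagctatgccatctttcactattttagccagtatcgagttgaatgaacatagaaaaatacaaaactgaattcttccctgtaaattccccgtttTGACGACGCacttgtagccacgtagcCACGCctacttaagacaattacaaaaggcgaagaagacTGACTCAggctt
IL1B (GRCh38.p14, chr2:112836780-112837029, minus strand): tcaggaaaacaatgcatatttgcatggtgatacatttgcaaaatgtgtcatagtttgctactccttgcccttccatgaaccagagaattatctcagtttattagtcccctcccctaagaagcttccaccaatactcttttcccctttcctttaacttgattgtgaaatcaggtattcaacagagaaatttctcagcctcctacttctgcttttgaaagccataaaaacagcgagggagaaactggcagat
CCL20 (GRCh38.p14, chr2:227813592-227813841, plus strand): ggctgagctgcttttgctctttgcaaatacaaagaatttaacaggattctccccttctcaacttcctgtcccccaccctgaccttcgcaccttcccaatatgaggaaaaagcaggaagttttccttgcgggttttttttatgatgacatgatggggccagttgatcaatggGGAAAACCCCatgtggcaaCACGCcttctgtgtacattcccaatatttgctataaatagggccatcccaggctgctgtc
IL8 (GRCh38.p14, chr4:73740319-73740568, plus strand): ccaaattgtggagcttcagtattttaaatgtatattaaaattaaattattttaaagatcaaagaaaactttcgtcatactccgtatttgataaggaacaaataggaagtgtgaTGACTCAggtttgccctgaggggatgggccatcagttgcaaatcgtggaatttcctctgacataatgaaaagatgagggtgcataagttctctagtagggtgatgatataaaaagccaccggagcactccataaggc
NFKBIA (GRCh38.p14, chr14:35404750-35404999, minus strand): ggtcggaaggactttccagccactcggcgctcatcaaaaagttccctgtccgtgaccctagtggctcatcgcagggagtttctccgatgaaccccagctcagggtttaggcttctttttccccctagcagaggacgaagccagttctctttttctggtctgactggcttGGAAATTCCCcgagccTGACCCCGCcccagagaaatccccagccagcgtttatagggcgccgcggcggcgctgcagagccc
The NF-kB consensus was found in this window in 7 of the 10 members: CXCL1, CXCL2, CXCL3, CCL20, IL6, TNFAIP3 and NFKBIA. Over the first listed starts of 27305 genes, 5.05% of such windows hold it. IL1A, IL1B and IL8 did not hold these letters in this window. Only full matches were marked, and the IL8 window holds a stretch that departs from the consensus in its last letter only. A window without a match can therefore still hold an NF-kB site. The IL1A window held an AP-1 motif, an xenobiotic response element core and an antioxidant response element core, which 6.6%, 31.9% and 11% of all windows hold, and the IL1B window held none of the 4. The AP-1 motif was also in the IL8 window, the xenobiotic core in that of CCL20 and the antioxidant core in that of NFKBIA. In the CXCL1, CXCL2 and CXCL3 windows the consensus matched at 2 overlapping positions each.

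In these cells IL1A, IL1B and NFKBIA were measurable in every well, and the neutrophil chemokines CXCL1, CXCL2 and CXCL3 were close to undetected. IL1A, IL1B and NFKBIA had a UMI in 95 of 95 wells, with a mean of 28.0, 18.6 and 18.8 counts a well. CCL20 had a UMI in 88 wells, with a mean of 7.56 counts, and IL8 in 80 wells, with a mean of 3.52. IL6 had 127 UMIs in all, in 64 wells, and TNFAIP3 had 109, in 57 wells. IL8, IL6 and TNFAIP3 were therefore read near the lower limit of the method. CXCL1 had 55 UMIs in 36 wells, CXCL2 55 in 37 wells and CXCL3 19 in 17 wells, and no well held more than 4 UMIs of any of the 3. IL8 and the CXCL genes lie in a cluster on chromosome 4 (hg19 positions 74606236 to 74609433 for IL8, 74735110 to 74737025 for CXCL1, 74902306 to 74904524 for CXCL3 and 74962757 to 74964913 for CXCL2). In the last 400 bases of their transcripts, 15.2% of the windows of 46 bases, the length of the read, were identical between CXCL1 and CXCL2, so those counts are uncertain between that pair. The last 400 bases of the other 8 members shared no such window with another gene. CXCL1, CXCL2 and CXCL3 stayed under the mean count of 1 that a gene needed to be tested in each comparison, and they are given as counts only. TNFAIP3 passed that filter in PIK3CA and CDKN2A cells under DMSO, and in no other comparison. Over the 3 genes together, the 12 PIK3CA wells held 31 UMIs, and the 12 GFP wells held 4. A count of 0 in a well allows a level of up to 1.58 to 4.33 CPM (counts-per-million, the UMIs of a gene scaled to the total of its well), which is 3 counts of that well's total. Such limits, and the intervals given below, cover counting error only.

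Depth ran from 692446 to 1895735 UMIs a well. It ran from 1168645 to 1792617 in the DMSO wells, from 752338 to 1895735 under CSC, from 843482 to 1400153 under BaP and from 692446 to 1702220 under NNK. The wells of a plate row all received the same treatment, and an effect of the row cannot be told apart from that of the chemical. The comparisons used the 82 wells with a 1-digit replicate number, since the labels do not say whether the 13 wells with a 2-digit number were separate cultures. The study calls its replicates biological, and the labels do not say whether replicate wells came from separate cultures, so the p-values measure the spread between wells. Within groups of 3 wells the spread of the members' counts was close to counting error, with a chi-square per degree of freedom of 0.80 for IL8 to 1.38 for TNFAIP3. All 8 epithelial markers listed were detected in the cells: KRT5, KRT14, KRT17 and TP63 of basal cells, and EPCAM, CDH1, KRT8 and KRT18, which are not particular to basal cells. Of 8 leukocyte markers, CD3E and MS4A1 were at 0 in every well, and PTPRC, the common leukocyte marker, had 4 UMIs in 95 wells. CD68 had 2289 UMIs and a count in 95 wells, LYZ had 488 in 93 wells, CSF1R 104 in 61 and CD14 99 in 57. Of the fibroblast markers DCN had 491 UMIs in 87 wells, and of the endothelial markers PECAM1 had 172 in 75 wells, with CDH5 and VWF at 0. The targeted genes followed the labels in the overexpressing populations and in FAT1. CDKN2A transcript had a median of 20.4 CPM in 6 CDKN2A wells and 28.0 CPM in 12 GFP wells, and an edited gene can still be transcribed.

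CSC raised the interleukin-1 genes. IL1A and IL1B were each about 3 times as high under CSC as under DMSO, in 5 of 5 populations, and CCL20 rose with them. NFKBIA, the feedback gene measured in every well, did not pass the test. In the 15 DMSO wells of the 5 populations with 3 wells under both treatments, IL1A ran from 2.83 CPM through a median of 9.12 to 17.9, and in the 15 CSC wells from 14.4 through 26.2 to 54.7. Within each population, every CSC well lay above every DMSO well, and the ratio of mean CPM ran from 2.10 in GFP to 4.29 in NRF2. IL1A had a log2 fold change equal to 1.65 (SE 0.13, adjusted p = 2.2e-17, limma). IL1B ran from 4.15 through 8.56 to 22.5 CPM under DMSO and from 13.7 through 24.7 to 54.7 under CSC. Its CSC wells lay above its DMSO wells in 5 of 5 populations, and the ratio of means ran from 2.47 in FAT1 to 3.15 in PIK3CA. For IL1B it was 1.59 (SE 0.13, adjusted p = 4.3e-17). In bulk wells, more cells of a kind and more RNA per cell cannot be told apart.

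CCL20 (chromosome 2, hg19 positions 228670455 to 228682280, plus strand) was sparser, at 0 to 9.94 CPM under DMSO and 0 to 27.4 CPM under CSC, with medians of 0.856 and 4.49. The highest values came from PIK3CA cells, with 9.44, 21.5 and 27.4 CPM under CSC. The rise was clear of overlap in NRF2 and GFP, and the mean was higher in 5 of 5 populations. Its log2 fold change was 1.36 (SE 0.24, adjusted p = 2.8e-05). IL6 and IL8 had 25 and 39 UMIs over 15 CSC wells against 10 and 23 over 15 DMSO wells. Their log2 fold changes of 1.01 (adjusted p = 0.0874) and 0.76 (adjusted p = 0.176) did not pass the threshold. NFKBIA ran from 10.6 through 13.3 to 21.9 CPM under DMSO and from 9.04 through 13.7 to 18.7 under CSC, and the wells of the treatments overlapped in 5 of 5 populations. Its log2 fold change was -0.04 (SE 0.12, adjusted p = 0.926). Of 6 members tested, 3 were higher under CSC and 0 lower, where 2.95% of the 11371 genes tested were called higher and 2.86% lower. The median log2 fold change of the tested members was 1.18, and that of all genes was near 0. CD68, a lysosomal gene listed as a leukocyte marker, had a median of 13.9 CPM under DMSO and 27.4 under CSC over all 1-digit wells, while PTPRC was at 0 in each of the 17 CSC wells. The summed leukocyte markers ran from 10.9 through 21.7 to 30.5 CPM under DMSO and from 16.5 through 33.9 to 46.3 under CSC, with 6 of the 8 detected in the series, and their part in the result was not tested.

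**Figure D1:**
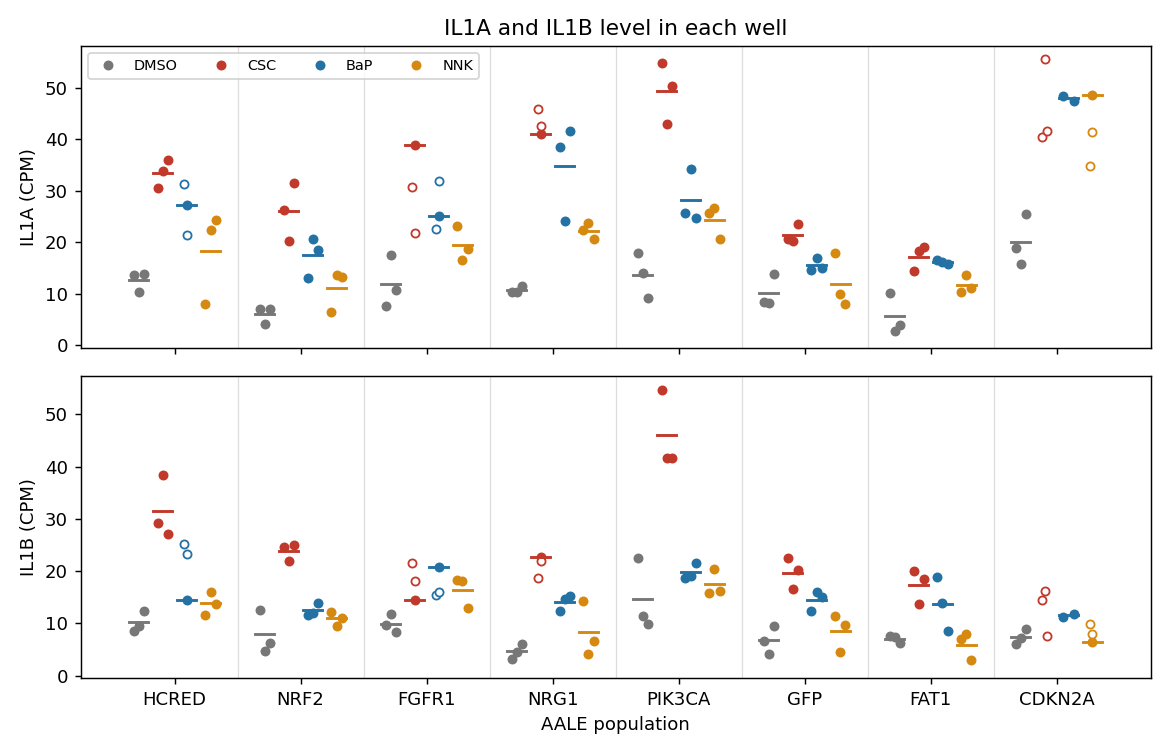
IL1A (top) and IL1B (bottom) in CPM in each of the 95 wells, by AALE population (x axis) and treatment (colour). Filled points are wells with 1-digit replicate numbers, bars their means, and open points wells with 2-digit numbers. IL1A under CSC lies above DMSO in each population, and in CDKN2A cells IL1A reaches up to 55.5 CPM while IL1B stays at or under 16.3 CPM.

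BaP raised IL1A and IL1B as well, and IL6 with them. All BaP wells lay above all DMSO wells in 5 of 5 populations for IL1A and in 3 of 5 for IL1B. IL1A ran from 13.2 through 18.5 to 41.6 CPM in 15 BaP wells, against 2.83 through 9.12 to 17.9 in the DMSO wells of the same 5 populations. The ratio of means ran from 1.52 in GFP to 3.23 in NRG1, and its log2 fold change was 1.33 (SE 0.14, adjusted p = 7.7e-12). IL1B ran from 8.57 through 14.7 to 21.6 CPM, against 3.23 through 6.71 to 22.5 in DMSO wells, and its log2 fold change was 0.92 (SE 0.15, adjusted p = 3.2e-06). The separated populations for IL1B were NRG1, GFP and FAT1. IL6, a cytokine that acts through the receptor subunit IL6ST, had 26 UMIs in 10 of 15 BaP wells and 8 UMIs in 5 of 15 DMSO wells. No population separated fully, and PIK3CA held the highest wells, at 1.52, 3.99 and 5.72 CPM. IL6 was higher by 1.21 on the log2 scale (SE 0.37, adjusted p = 0.0226), and the call was lost without replicate 1 and without replicate 3 of every group, and in DESeq2, which gave it no adjusted p. The values of IL8 (0.81, adjusted p = 0.0699), CCL20 (0.64, adjusted p = 0.0901) and NFKBIA (0.24, adjusted p = 0.258) did not pass. Of 6 members tested, 3 were higher and 0 lower, where 5.04% of 11306 genes were called higher and 4.12% lower. NFKBIA had no common direction among populations: its BaP wells lay above the DMSO wells in NRG1 (18.2, 19.9 and 21.8 against 8.40, 10.4 and 15.2 CPM) and below them in GFP (9.36, 10.1 and 10.6 against 11.7, 13.2 and 13.3 CPM).

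Under NNK, IL1A, CCL20 and IL1B rose, and IL1A was the one call that did not need all the replicates. IL1A ran from 6.51 through 17.9 to 26.7 CPM in 21 NNK wells of 7 populations, against 2.83 through 10.3 to 17.9 in DMSO. All NNK wells lay above all DMSO wells in 3 populations (NRG1, PIK3CA and FAT1), and the mean was higher in 7 of 7, by 1.17 to 2.09 times. Its log2 fold change was 0.80 (SE 0.13, adjusted p = 3.9e-06). CCL20 rose by 0.73 on the log2 scale (SE 0.20, adjusted p = 0.0144), with 108 UMIs in 21 NNK wells and 82 in 21 DMSO wells, and its mean was higher in 6 of 7 populations. IL1B ran from 2.94 through 11.6 to 20.5 CPM under NNK and from 3.23 through 8.28 to 22.5 under DMSO, ranges that overlap almost wholly. The log2 fold change of IL1B, 0.45 (SE 0.15, adjusted p = 0.0478), was just past the threshold, and only FGFR1 cells separated, at 13.0, 18.0 and 18.3 CPM against 8.28, 9.70 and 11.9. IL8 (0.37, adjusted p = 0.480) and NFKBIA (-0.11, adjusted p = 0.631) did not pass. The NNK wells of NFKBIA lay above the DMSO wells in NRF2 and below them in GFP and FAT1. Of 5 members tested, 3 were higher and 0 lower, where 3.07% of 11349 genes were called higher and 4.15% lower. CCL20 and IL1B were called only with all 3 replicates, and leaving out replicate 1, 2 or 3 of every group left IL1A as the single call. The well NRG1 under NNK, replicate 2, stood apart from its group, and the same 3 members were called without it.

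**Figure D2:**
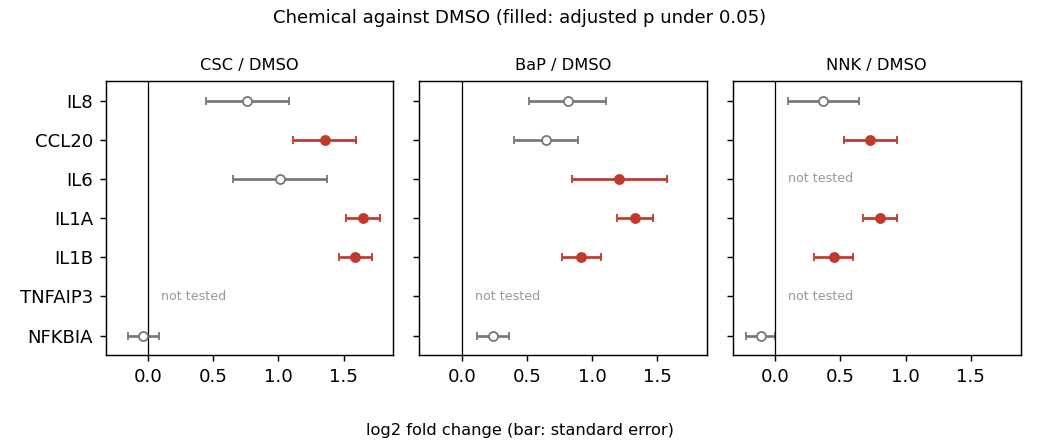
The log2 fold change of each member tested against DMSO for CSC, BaP and NNK (x axis), with bars for the standard error and filled points for adjusted p under 0.05. IL1A and IL1B are filled in all 3 panels. NFKBIA is open in each, at -0.04 for CSC, 0.24 for BaP and -0.11 for NNK.

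The 20 treated wells that entered none of these fits give a further reading of the same genes. They are 7 wells with 1-digit numbers in groups of fewer than 3, and the 13 wells with 2-digit numbers. They come from HCRED under BaP, FGFR1 under CSC and BaP, NRG1 under CSC, and CDKN2A under CSC, BaP and NNK. Wells of a group share its population and treatment, and the 13 may not be separate cultures. The counts of wells below are therefore not counts of independent readings. IL1A was above the highest DMSO well of its own population in 20 of the 20, and IL1B in 17 of the 20. IL6 was above it in 13, IL8 in 12, CCL20 in 6 and NFKBIA in 1. The DMSO wells are those of the fits, and the share of such wells over all genes was not counted. For sparse members a few UMIs suffice: the highest DMSO well of IL6 was 0 CPM in NRG1, 0.828 in FGFR1 and 0.856 in HCRED cells. When 2-digit wells were summed into the replicate named by their first digit and all 8 populations entered the fit, 4 members were called higher under CSC, 5 under BaP and 4 under NNK, where 4.75%, 8.39% and 4.81% of all genes were. IL6 was among them under each chemical, with log2 fold changes of 1.06 (adjusted p = 0.00756), 1.03 (adjusted p = 0.00673) and 0.95 (adjusted p = 0.0204). IL8 was added under BaP alone (0.90, adjusted p = 0.00106), and whether its response differs between chemicals was not shown by the direct test.

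Compared directly in the populations that had both chemicals, CSC gave the higher interleukin-1 levels. The doses are in different units and times are not stated, so these are differences between the treatments as given. Against BaP, over 4 populations, IL1B was higher under CSC by 0.78 on the log2 scale (SE 0.12, adjusted p = 5.1e-06) and IL1A by 0.50 (SE 0.11, adjusted p = 0.00238). CCL20 was 0.74 higher (adjusted p = 0.104). Of 6 members tested 2 were higher and 0 lower, where 1.58% of genes were called higher and 3% lower. Without replicate 1, IL1B alone was called, and without replicate 3, IL1B and CCL20 were. Against NNK, over 5 populations, IL1B was higher by 1.21 (SE 0.12, adjusted p = 3.3e-12), IL1A by 0.85 (SE 0.12, adjusted p = 1.4e-07) and CCL20 by 0.68 (SE 0.22, adjusted p = 0.0262). That was 3 of 6 members higher and 0 lower, where 4.92% of genes were called higher and 7.35% lower. The CCL20 call was lost without replicate 1 and without replicate 2, and IL1A and IL1B were called in each case. With 2-digit wells summed it was lost too, at 0.15 (SE 0.17, adjusted p = 0.706). Between BaP and NNK, IL1A was higher under BaP by 0.48 (SE 0.12, adjusted p = 0.0249), and IL1B by 0.61 (SE 0.17, adjusted p = 0.0536) did not pass. That was 1 of 6 members higher and 0 lower, where 0.427% of genes were called higher and 0.569% lower, and it was lost without replicate 1 or replicate 3. These comparisons share wells with each other and with those against DMSO.

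No member's response to a chemical was shown to differ between populations. The interaction of population and chemical, by edgeR's quasi-likelihood F test, called 0 members under CSC, BaP or NNK, where it called 0.141%, 0.177% and 0.0881% of all genes. At an unadjusted p under 0.05 no member was found under CSC. NFKBIA was found under BaP (edgeR, adjusted p = 0.758) and IL8 under NNK (edgeR, adjusted p = 0.596). For IL8, NRG1 cells had 0.648, 1.94 and 2.44 CPM under DMSO and 0, 0 and 0.678 under NNK, and NRF2 cells had 0, 0 and 0.680 under DMSO and 0.739, 1.63 and 2.73 under NNK. For IL1A under BaP, with ratios of 1.52 to 3.23, edgeR gave an adjusted p of 0.781.

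The CDKN2A knockout population had high CCL20, IL8 and IL1A without any chemical, and IL1B at the level of its control. Under DMSO, CCL20 was 12.3, 12.2 and 21.6 CPM in the CDKN2A wells and 0, 0.831 and 1.47 CPM in the GFP wells. IL8 was 3.90, 5.04 and 5.09 CPM against 0, 0 and 0.733. IL1A was 19.0, 15.8 and 25.4 CPM against 8.31, 8.39 and 13.9. None of these 3 overlapped between the populations, and neither did NFKBIA nor TNFAIP3, given below. The share of all genes that separate in this way was not counted. IL1B was 6.14, 7.20 and 8.90 CPM against 4.15, 6.71 and 9.53, and lay inside the control's range. In UMIs, CCL20 was 73 against 3, a ratio of 19.2 with a 95% exact counting interval of 6.33 to 95.5, and IL8 was 22 against 1, a ratio of 17.4 with an interval of 2.81 to 718. In the limma fit the log2 fold changes were 3.79 for CCL20 (SE 0.74, adjusted p = 3.0e-05), 2.99 for IL8 (SE 0.82, adjusted p = 0.00417) and 0.83 for IL1A (SE 0.30, adjusted p = 0.0388). That of IL1B was 0.02 (SE 0.39, adjusted p = 0.979). TNFAIP3 had 8 UMIs in the CDKN2A wells and 0 in the GFP wells (adjusted p = 0.0834). NFKBIA was 13.4, 22.3 and 26.1 CPM against 11.7, 13.2 and 13.3, and its log2 fold change was 0.49 (SE 0.28, adjusted p = 0.234). Of 6 members tested, 3 were higher and 0 lower, where 8.64% of 11575 genes were called higher and 9.22% lower. The calls of IL8 and IL1A rest on the GFP wells: without GFP replicate 1 or without GFP replicate 2, CCL20 alone was called. DESeq2 called CCL20, gave IL8 no adjusted p and gave IL1A an adjusted p of 0.154. The IL1A call was also lost without CDKN2A replicate 1 or replicate 3. The summed leukocyte markers did not overlap either. They were at 20.9, 22.3 and 25.4 CPM in the CDKN2A wells and 10.9, 13.3 and 15.4 CPM in the GFP wells. Nor did the endothelial markers overlap, at 2.16 to 3.18 against 0 to 1.68 CPM. The summed fibroblast markers and the summed epithelial markers did overlap. Over all wells of the series, the leukocyte list held 2289 UMIs of CD68 and 488 of LYZ, but 4 of PTPRC. The endothelial list held 172 UMIs of PECAM1, with CDH5 and VWF at 0. Which genes made the sums differ between CDKN2A and GFP was not examined. The part of these markers in the result was not tested.

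The same genes were also read in treated wells. The fit given first kept the DMSO wells above and added 2 CDKN2A wells under BaP and 1 under NNK. It was therefore not a separate test of the pattern under the chemicals. With the CDKN2A and GFP wells under BaP and NNK added and chemical as a covariate, a fit chosen after the data had been seen, CCL20 (3.66, SE 0.37), IL8 (3.51, SE 0.42) and IL1A (1.40, SE 0.19) were higher over 6 CDKN2A and 9 GFP wells, and TNFAIP3 was called too (1.83, SE 0.54, adjusted p = 0.00525), where 15.7% of genes were called higher. IL1B was at -0.19 (SE 0.25, adjusted p = 0.606). In the CDKN2A wells under CSC, which carry 2-digit numbers, IL1A was 40.5, 55.5 and 41.6 CPM, and the highest of these was the highest IL1A level of the series. Their IL1B was 14.5, 16.3 and 7.66 CPM. Under BaP, IL8 was 11.2 and 19.0 CPM in the CDKN2A wells, and no well of another population exceeded 8.66 CPM.

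**Figure D3:**
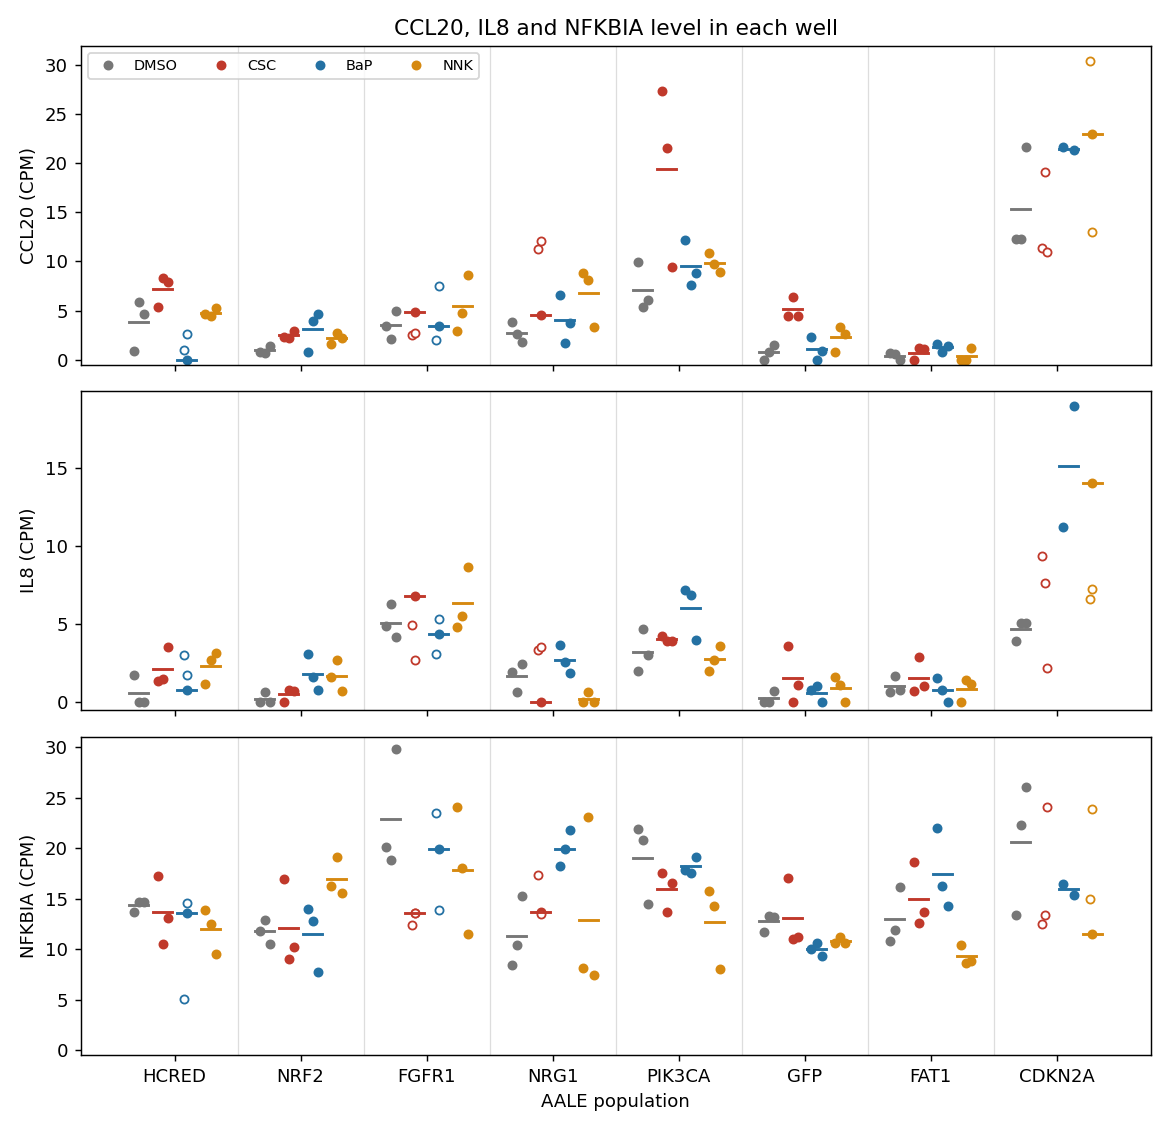
CCL20, IL8 and NFKBIA in CPM in each well, by AALE population and treatment, with 1-digit wells filled, their means as bars and 2-digit wells open. The highest single wells of CCL20 (30.4 CPM, under NNK) and of IL8 (19.0 CPM, under BaP) are CDKN2A wells. Under DMSO mean IL8 is 5.09 CPM in FGFR1 cells and 4.68 in CDKN2A cells. CCL20 reaches 27.4 CPM in PIK3CA cells under CSC, and NFKBIA shows no common shift under any chemical.

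In the other 6 comparisons of populations under DMSO, limma called 0 members and edgeR 1 (IL8 in FGFR1). DESeq2 called 0, but it gave no adjusted p to any tested member in NRF2, FGFR1, NRG1 or PIK3CA. In FAT1 only NFKBIA received an adjusted p, and in GFP against HCRED only IL1A and NFKBIA did. Its 0 therefore says nothing about the other members, IL8 in FGFR1 among them. At an unadjusted p under 0.05 in limma there was 1 member in NRF2, NRG1, FAT1 and GFP each and 2 in FGFR1 and in PIK3CA. FGFR1 cells had 4.14, 4.85 and 6.29 CPM of IL8 against 0, 0 and 1.71 in HCRED cells, without overlap, at 21 against 2 UMIs (ratio 9.82, interval 2.40 to 86.4). The log2 fold change of 2.99 (SE 0.89, adjusted p = 0.0685) missed the threshold, and edgeR called it (adjusted p = 0.0222). The other FGFR1 member was NFKBIA, at 18.9 to 29.8 CPM against 13.7 to 14.7 in HCRED cells. Its log2 fold change of 0.61 (SE 0.27, adjusted p = 0.425, limma) did not pass. PIK3CA cells had 1.99, 3.04 and 4.70 CPM of IL8, which is 2.40 on the log2 scale above HCRED (SE 0.89, adjusted p = 0.105), and their CCL20 was 5.37, 6.08 and 9.94 CPM against 0.856, 4.65 and 5.88 (1.08, SE 0.48, adjusted p = 0.223). NRG1 cells had the lowest IL1B, at 3.23, 4.54 and 6.09 CPM against 8.56, 9.56 and 12.4 in HCRED cells, which is -1.04 on the log2 scale (SE 0.37, adjusted p = 0.130). IL1A had values of -0.96 in NRF2 (SE 0.35, adjusted p = 0.108) and -0.96 in FAT1 (SE 0.39, adjusted p = 0.0852), and CCL20 was at -1.40 in NRF2 (adjusted p = 0.377). GFP cells, compared with HCRED cells to see how far the controls differ, had CCL20 at 0, 0.831 and 1.47 CPM against 0.856, 4.65 and 5.88, and its log2 fold change was -1.77 (SE 0.85, adjusted p = 0.204). The genes called higher and lower were 3.39% and 1.52% of those tested in NRF2, 0.501% and 0.413% in FGFR1, 2.08% and 0.998% in NRG1, 3.36% and 2.05% in PIK3CA, 6.39% and 7.7% in FAT1, and 5.94% and 4.86% in GFP against HCRED.

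**Figure D4:**
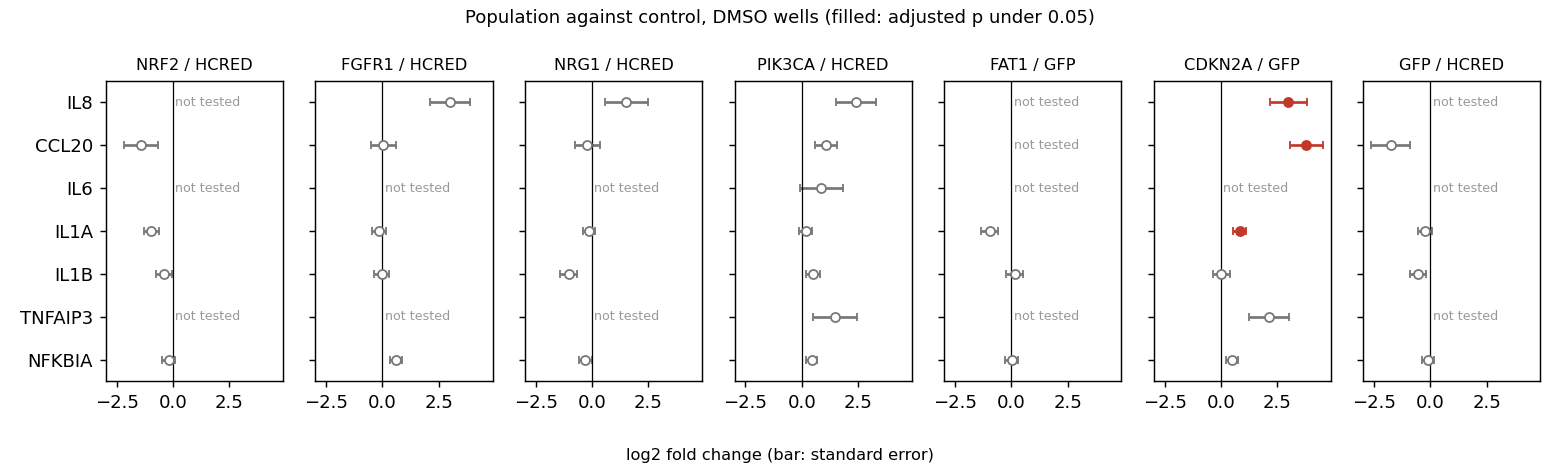
The log2 fold change of each member tested between each population and its control in DMSO wells, 3 against 3, with bars for the standard error and filled points for adjusted p under 0.05. Only CDKN2A against GFP holds filled points, for IL8, CCL20 and IL1A, and members under the count filter are marked as not tested.

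Pooling the chemicals that both populations of a comparison had in full, with chemical as a covariate, gave calls in 5 of these 6 comparisons. NRG1 against HCRED had none, in a fit that called 0.123% of all genes higher and 0.299% lower. Its IL1B was at -1.11 (SE 0.31, adjusted p = 0.141, limma). PIK3CA cells were higher than HCRED cells, over 18 wells and 3 treatments, for CCL20 (1.16, SE 0.25, adjusted p = 0.000495), IL1B (0.50, SE 0.14, adjusted p = 0.00996) and IL1A (0.48, SE 0.14, adjusted p = 0.0146). FGFR1 cells were higher for IL8 (1.95, SE 0.49, adjusted p = 0.00717) over 12 wells. NRF2 cells were lower for CCL20 (-1.27, SE 0.32, adjusted p = 0.00404) and IL1A (-0.54, SE 0.17, adjusted p = 0.0247). FAT1 cells were lower than GFP cells for CCL20 (-1.31, SE 0.41, adjusted p = 0.00902). GFP cells were themselves lower than HCRED cells for IL1B (-0.67, SE 0.17, adjusted p = 0.00231), IL1A (-0.53, SE 0.17, adjusted p = 0.0171) and CCL20 (-0.96, SE 0.33, adjusted p = 0.0281), so the control populations of the knockouts and of the overexpression differed in the same genes. In those fits 6.32% of genes were called higher and 4.38% lower for NRF2, 7.21% and 5.98% for PIK3CA, 1.62% and 1.67% for FGFR1, 16.4% and 16.7% for FAT1, and 11.5% and 11.8% for GFP. Each population kept its plate columns under every treatment, so population and position cannot be told apart.

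IL1A and IL1B lie close to each other on chromosome 2 (hg19 positions 113531502 to 113542070 and 113587328 to 113594393, minus strand), and across 31 groups their mean log2 CPM had a Pearson r of 0.59. CDKN2A and NRG1 cells departed from the others in the balance of the pair. The ratio of IL1A to IL1B UMIs was between 1.11 and 1.34 in HCRED, NRF2, FGFR1, PIK3CA, GFP and FAT1 cells, summed over each population's 1-digit wells. It was 2.36 in NRG1 cells (323 against 137 UMIs) and 3.65 in CDKN2A cells (230 against 63 UMIs). IL1A exceeded IL1B in 10 of 10 NRG1 wells and in 6 of 6 CDKN2A wells. These are ratios of UMIs, and whether the capture of the 3′ ends of the genes is the same in every population was not tested. The treatments are not represented alike: the CDKN2A wells are 3 under DMSO, 2 under BaP, 1 under NNK and 0 under CSC. By treatment, the ratio in CDKN2A wells was 2.74 under DMSO, 4.17 under BaP and 7.60 in the NNK well, and over the other 7 populations it was 1.16 under DMSO, 1.14 under CSC, 1.51 under BaP and 1.5 under NNK. The ratio was examined after the values had been seen. In exact two-sided permutation tests within chemicals, the log2 ratio was 1.51 higher in CDKN2A than in GFP wells (p = 0.00125, the smallest the arrangements allow, adjusted p = 0.00602 over 7 comparisons) and 0.91 higher in NRG1 than in HCRED wells (exact p = 0.00172, adjusted p = 0.00602). In the other 5 comparisons the difference lay between -0.31 and 0.10, with adjusted p of 0.294 or more. Among DMSO wells alone, the 3 CDKN2A wells had log2 ratios averaging 1.39 against 0.59 in GFP, and an exact test of 3 against 3 wells cannot go below 0.1.

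**Figure D5:**
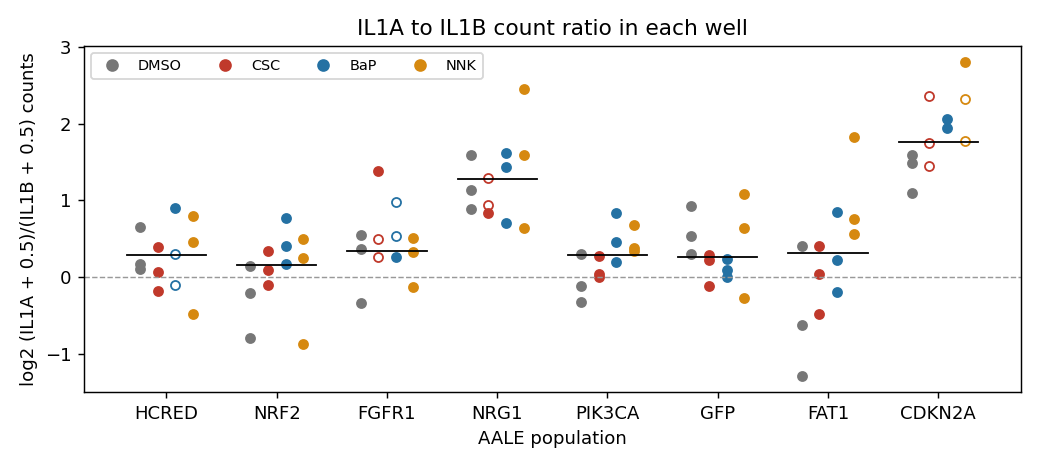
The log2 ratio of IL1A to IL1B UMIs, with 0.5 added to each, in each well by AALE population and treatment (colour). Filled points are 1-digit wells, open points 2-digit wells, and the black line is the median of the 1-digit wells, which is 1.28 in NRG1 and 1.77 in CDKN2A and between 0.16 and 0.35 in the other populations.

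Over the 25 groups with 3 wells, mean IL1A ran from 5.62 ± 3.97 CPM (SD, n = 3) in FAT1 cells under DMSO to 49.4 ± 5.91 in PIK3CA cells under CSC. Most neighbours in that order could not be told apart, since 22 of 24 neighbouring pairs overlapped in their wells. The exceptions were PIK3CA under CSC above NRG1 under BaP (34.8 ± 9.30), and GFP under DMSO above NRF2 under DMSO. The wells of GFP under DMSO (lowest 8.31 CPM) still overlapped with those of FAT1 under DMSO (highest 10.2 CPM). IL1B ran from 4.62 ± 1.43 in NRG1 cells under DMSO to 46.0 ± 7.50 in PIK3CA cells under CSC, followed by HCRED and NRF2 cells under CSC, at 31.6 ± 5.97 and 23.8 ± 1.70, and these 3 did not overlap with each other or with the next group. Groups further down did overlap with NRF2 under CSC (lowest well 21.8 CPM): GFP under CSC reached 22.4 and PIK3CA under DMSO 22.5 CPM. CCL20 ran from 0.392 ± 0.678 in FAT1 cells under NNK to 19.4 ± 9.13 in PIK3CA cells under CSC, which overlapped with 15.4 ± 5.41 in CDKN2A cells under DMSO. NFKBIA spanned 9.28 to 22.9 CPM, and all of its 24 neighbouring pairs overlapped. IL8, IL6, TNFAIP3 and the CXCL genes also overlapped in all 24.

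Of a list of 74 other genes of the pathway (ligands, receptors and their signalling proteins, NF-kB subunits, feedback genes and targets), the counts called under the chemicals are given beside the shares over all genes. Under CSC 0 of 50 tested passed in limma (9 at an unadjusted p under 0.05, 1 by edgeR and 0 by DESeq2), and the median log2 fold change was 0.05, where 2.95% of all genes were called higher and 2.86% lower. The nearest were BIRC3, an inhibitor of apoptosis induced by NF-kB, at 0.41 (adjusted p = 0.0591), and IL1RN, the antagonist that competes with IL1A and IL1B for their receptor, at 0.47 (adjusted p = 0.0656), both singled out after their values were seen. Under BaP 1 of 50 was higher, where 5.04% of all genes were: SAA1, an acute-phase gene whose near-identical copy SAA2 makes its counts uncertain, by 0.45 (SE 0.10, adjusted p = 0.00172). Under NNK 1 of 48 was higher, where 3.07% of all genes were: TNFRSF1A, the receptor of TNF, by 0.98 (SE 0.19, adjusted p = 0.000165). No listed gene was lower under any of the 3. Between CSC and NNK, BIRC3 and TNFAIP2 were higher under CSC and TNFRSF1A and SAA1 lower, 4 of 48 tested, where 4.92% of all genes were higher and 7.35% lower. Between CSC and BaP 0 of 51 passed, and between BaP and NNK 0 of 50, with 6 genes each at an unadjusted p under 0.05, and 1 and 0 by edgeR.

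Between CDKN2A and GFP cells under DMSO, 7 of 51 tested were higher and 2 lower, where 8.64% of all genes were called higher and 9.22% lower, so the share called in the list was near that over all genes. The list had a median log2 fold change of 0.36 against 0.03 for all genes. Higher were BIRC3, at 40.5 against 11.5 CPM (1.65, SE 0.27, adjusted p = 5.3e-07), its neighbour and relative BIRC2 (0.85, SE 0.22), the pattern receptor TLR2 (1.31, SE 0.43), the interleukin-1 receptor kinase IRAK1 (1.02, SE 0.34), IL6ST (0.83, SE 0.26), SAA1 and the complement gene C3, which was at 0 in the GFP wells. Lower were IL1RN, at 2.61 against 8.92 CPM (-1.91, SE 0.48, adjusted p = 0.00191), and TNFAIP8 (-0.90, SE 0.28). IL1RN was also lower in FAT1 cells than in GFP cells (-1.92, SE 0.50, adjusted p = 0.0032) and in PIK3CA cells than in HCRED cells (-1.96, SE 0.45, adjusted p = 0.00185). IL18, a cytokine of the interleukin-1 family, was higher than in HCRED in NRF2 (0.34, SE 0.09) and PIK3CA cells (0.33, SE 0.09), lower in FGFR1 cells (-0.67, SE 0.13), lower in FAT1 than in GFP cells (-0.47, SE 0.12) and lower in GFP than in HCRED cells (-0.70, SE 0.10). In all, NRF2 had 1 higher and 1 lower of 46 tested, where 3.39% and 1.52% of all genes were. FGFR1 had 0 and 1 of 50 (0.501% and 0.413% of all genes), and NRG1 had 0 and 0 of 48 by limma, with 8 at an unadjusted p under 0.05, 2 by edgeR and 0 by DESeq2 (2.08% and 0.998%). PIK3CA had 2 and 1 of 50 (3.36% and 2.05%), FAT1 had 1 and 4 of 48 (6.39% and 7.7%), and GFP had 1 and 2 of 48 (5.94% and 4.86%). With so few calls, these counts say nothing particular about the list. FGFR1, NRG1, PIK3CA and NRF2 share the HCRED wells, and FAT1 and CDKN2A the GFP wells.

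The genes whose group means followed a member most closely were taken from 5619 genes with a mean of at least 10 counts a well, over 31 groups, as a description. IL1A was most like AREG, an EGF receptor ligand (r = 0.85), IER3, an immediate early response gene (r = 0.82), and TMEM156 (r = 0.81). IL1B was most like TXNRD1, a thioredoxin reductase that is a target of NRF2 (r = 0.79), LIMA1 (r = 0.76) and CD68 (r = 0.72). NFKBIA had weaker companions, ANKRD17 (r = 0.62), ST13 (r = 0.62) and ISG15 (r = 0.58). Among the members, IL8 and CCL20 followed each other (r = 0.72), as did CCL20 and IL1A (r = 0.67) and IL6 and IL1A (r = 0.61), and IL8 with IL1B had r = 0.10. The points of these correlations share wells, plate rows and control populations, and the sparser members carry more counting error.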

How the data were processed

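3′DGE libraries of 95 AALE wells were analysed. The authors deposited raw counts, 1 UMI per molecule and gene in each well. Per the labels and the study's methods, the reads were aligned with BWA 0.7.10 to RefSeq transcripts of hg19 and quantified before the authors received them. The 46-base read covers the 3′ end only, so levels were not ranked between genes, except that the ratio of IL1A to IL1B UMIs was compared between populations.

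The members and the gene lists were chosen with earlier results of these data known. Wells were grouped by population and chemical from the labels. Genes with a mean count above 1 in the wells of a comparison were tested with limma-voom (limma 3.58.1, R 4.3.3) after TMM scaling, at a Benjamini-Hochberg adjusted p under 0.05 over all genes tested. The chemical comparisons carried population as a covariate and used populations with 3 one-digit wells under both treatments. Population comparisons used 3 against 3 DMSO wells. Interactions were tested by edgeR 4.0.16. The alternatives were edgeR's quasi-likelihood test, DESeq2 1.42.0, median-ratio size factors, no filter, the 10000 genes of largest median absolute deviation, a replicate block, each replicate left out, 2-digit wells summed, all chemicals pooled and a single fit over all groups. The scripts were tested on simulated data. Pathway genes were named where they were among the 3 higher and 3 lower of smallest adjusted p in a chemical comparison. Other pathway genes that passed the test between populations were named after their values were seen. Promoter windows are RefSeq's on GRCh38.p14, and gene positions are GENCODE's on hg19.

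Depth was 692446 to 1895735 UMIs a well, and 3 counts correspond to 1.58 to 4.33 CPM. Count intervals are exact at 95%.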

Additional observations from a re-analysis of the deposited data

How the results depend on the processing

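No member reversed its direction under the alternatives run while called. Counts of called members moved in these cases. With 2-digit wells summed, BaP had 5 and BaP against NNK had 2, as the latter also had among the 10000 genes of largest deviation. DESeq2 called 1 for CDKN2A and 2 for BaP. FGFR1 had 1 in edgeR, with no filter, with all chemicals and in the single fit, and PIK3CA had 1 with no filter and in the single fit. With all chemicals, NRF2 had 2, PIK3CA 3, FAT1 1 and GFP against HCRED 3. For CDKN2A this fit was not run, since DMSO alone had 3 one-digit wells in both populations. With no filter, CDKN2A lost IL1A and gained TNFAIP3, and CSC and NNK each gained IL6 (4 called). The single fit left CDKN2A 2, without IL1A. CSC against BaP had 3 in edgeR, with CCL20, and CSC against NNK had 2 with 2-digit wells summed, without CCL20. Summed wells gave CSC and NNK 4 each, with IL6. With each replicate left out in turn, called members ranged from 1 to 1 for NNK, 1 to 3 for CDKN2A, 1 to 2 for CSC against BaP, 2 to 3 for BaP and for CSC against NNK, and 0 to 1 for BaP against NNK, FAT1 (1 without FAT1 replicate 1) and FGFR1 (1 without FGFR1 replicate 3). The cause of these changes was not tested.

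With the replicate number as a block, BaP had 4 members called, IL8 being added, and the called members of the other comparisons were those called without it. Across 72 pairs of wells with the same number, deviations from the group means had correlations of -0.108 to 0.102, so no pairing by number was seen. Deviations of single wells carry counting error, so the check cannot exclude a weak pairing. The depth leaves CXCL1, CXCL2, CXCL3, IL6 and TNFAIP3 at a few UMIs a well, where a difference would mostly not be detectable.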
